A study of Mus musculus with 12 samples.

Results

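The genes examined were 10 components and targets of bone morphogenetic protein (BMP) signaling, *Id1*, *Id2*, *Id3*, *Id4*, *Smad6*, *Smad9*, *Bambi*, *Bmpr1a*, *Bmpr2*, and *Bmp4*, chosen by symbol from the 52636 genes of the count matrix. The 10 genes, and the gene lists used below, were chosen with earlier results of these data known. All 10 passed the filter on low counts, which left 22320 genes for testing. Bulk RNA-seq libraries were made from GFP+ aortic smooth muscle cells (SMCs) of 3 GFPiSMC and 3 Tgfbr1/2iSMCKO mice, and cells of the ascending/arch were sorted and sequenced apart from those of the descending thoracic segment, so that 12 libraries fell into 4 groups of 3. Mice of both genotypes were male, on the C57BL/6J strain, carried *Myh11-CreERT2* and the *mT/mG* reporter, received tamoxifen for 5 days, and were analyzed at 12 weeks of age. Tgfbr1/2iSMCKO mice also carried floxed alleles of *Tgfbr1* and *Tgfbr2*, the type I and type II receptors for TGF-β, whereas GFPiSMC mice had no floxed receptor alleles. Cre is driven by a *Myh11* transgene on the Y chromosome, so recombination and the GFP label mark SMCs that had *Myh11* promoter activity at the time of tamoxifen. The labels name 1 mg/d at 4 weeks and 2 mg/d at 11 weeks of age without assigning them to libraries, and the study's methods give 11 weeks for the 12-week analysis. Nothing besides the shared number marks libraries as segments of the same mouse, and they were treated as such.

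BMP ligands bind pairs of type I and type II serine/threonine kinase receptors, which phosphorylate the receptor-regulated Smads 1, 5, and 9. These enter the nucleus with Smad4 and activate genes that include the *Id* family and *Smad6*. Id proteins have a helix-loop-helix domain without a DNA-binding region and hold E proteins away from E-box sequences, while Smad6 feeds back to block the receptors. In vessels the pathway is best known from pulmonary hypertension caused by mutations of the type II receptor. TGF-β receptors share Smad4 and the inhibitory Smad7 with the BMP branch.

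Promoter windows were examined because BMP-activated Smads are known to bind GC-rich elements, of which GGCGCC is the form searched here, and because Smad4 binds CAGAC. The windows run from 250 bases before to 50 bases after the RefSeq gene start (GRCm38.p6), and those of 8 of the 10 genes were read. *Id1* had no entry. Windows on the chromosome that holds *Bambi* were left out for the 10 genes but kept among those of all genes, so *Bambi* was not examined. GGCGCC, which reads the same on both strands, occurred in 5 of 8 windows (*Id2*, *Id4*, *Smad9*, *Bmpr1a*, and *Bmpr2*), compared with 11.9% of 32851 windows of all genes. It occurred in 30% of the 10219 windows that were at least as rich in G and C as the poorest of the 8 (59.3%). The 5 windows with GGCGCC held 59.3% to 79.3% G and C, so the 10219 windows are not matched to them. CAGAC on either strand was present in 1 of 8 windows, that of *Id3*, compared with 49.6% of all windows and 45.1% of those 10219 windows. CANNTG, the general E-box, was present in 4 of 8, compared with 72.3% and 59.5%, respectively. A match describes the letters of these windows only. The windows of the 4 genes with the highest log2 fold changes of Tgfbr1/2iSMCKO over GFPiSMC SMCs are shown, at chr12:25096043-25096342 (- strand), chr4:136143572-136143871 (+ strand), chr13:48260866-48261165 (+ strand), and chr3:54755332-54755631 (+ strand), with GGCGCC in capitals, or CAGAC and its complement GTCTG in capitals for *Id3*.
Id2 promoter: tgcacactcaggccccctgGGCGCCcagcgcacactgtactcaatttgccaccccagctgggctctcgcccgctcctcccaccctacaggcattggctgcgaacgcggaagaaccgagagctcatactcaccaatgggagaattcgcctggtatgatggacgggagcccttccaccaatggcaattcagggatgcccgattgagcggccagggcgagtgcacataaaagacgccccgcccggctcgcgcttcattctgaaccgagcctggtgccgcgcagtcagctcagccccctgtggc
Id3 promoter: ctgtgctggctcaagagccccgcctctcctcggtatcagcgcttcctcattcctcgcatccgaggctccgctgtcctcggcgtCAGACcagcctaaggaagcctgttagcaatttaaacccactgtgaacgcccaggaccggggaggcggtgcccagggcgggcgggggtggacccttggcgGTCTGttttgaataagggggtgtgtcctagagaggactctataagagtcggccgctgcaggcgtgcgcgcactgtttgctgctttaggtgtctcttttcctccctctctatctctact
Id4 promoter: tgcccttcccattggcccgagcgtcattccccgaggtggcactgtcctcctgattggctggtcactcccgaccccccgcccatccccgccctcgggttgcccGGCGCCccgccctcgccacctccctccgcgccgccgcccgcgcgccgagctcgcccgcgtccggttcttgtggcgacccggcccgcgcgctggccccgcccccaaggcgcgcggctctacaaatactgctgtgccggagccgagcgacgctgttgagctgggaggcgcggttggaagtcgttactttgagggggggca
Smad9 promoter: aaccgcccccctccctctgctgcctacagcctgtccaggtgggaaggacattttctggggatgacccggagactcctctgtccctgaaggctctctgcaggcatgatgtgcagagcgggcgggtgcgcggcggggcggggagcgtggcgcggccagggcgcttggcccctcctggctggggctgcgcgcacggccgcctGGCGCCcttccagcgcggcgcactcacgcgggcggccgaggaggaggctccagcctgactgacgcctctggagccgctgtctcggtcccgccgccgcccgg

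The 4 *Id* genes are paralogs, and reads from a shared stretch could be assigned to the wrong member. The most alike in-frame stretch of 60 bases in their GENCODE M21 coding sequences lies in the helix-loop-helix domain, and 42 of its 60 bases were common to all 4 genes (capitals). *Id1* and *Id4* had the most similar pair of stretches, with 54 of 60 bases in common. The longest run of identical bases in the complete coding sequences of any pair was 17 bases, in *Id1* and *Id4*, and the shortest such maximum was 11.
Id1 coding bases 247 to 306: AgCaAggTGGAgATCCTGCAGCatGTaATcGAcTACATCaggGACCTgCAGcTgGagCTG
Id2 coding bases 178 to 237: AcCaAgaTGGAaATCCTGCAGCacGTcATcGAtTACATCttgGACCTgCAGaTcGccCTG
Id3 coding bases 193 to 252: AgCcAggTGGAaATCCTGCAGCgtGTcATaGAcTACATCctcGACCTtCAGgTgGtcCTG
Id4 coding bases 265 to 324: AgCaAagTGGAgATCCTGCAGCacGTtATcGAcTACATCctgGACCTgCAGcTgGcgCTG

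Libraries held 20467027 to 31392396 counts from 9208 to 20000 sorted cells. Levels are in CPM, a gene's count relative to the TMM-scaled library total. In this bulk measurement, fewer cells of a type and less RNA per cell cannot be told apart. The SMC markers *Myh11*, *Acta2*, *Tagln*, *Cnn1*, *Smtn*, and *Myocd* were abundant in every library. They totaled 39408 to 46872 CPM (median 42465) in GFPiSMC and 32911 to 42328 CPM (median 37637) in Tgfbr1/2iSMCKO libraries. Between genotypes 3 of these 6 had log2 fold changes below 0, and 2 were lower at an unadjusted p below 0.05 by edgeR (16.1% of all genes had one). None was called. The leukocyte markers *Ptprc*, *Adgre1*, *Csf1r*, *Cd68*, *Lyz2*, and *C1qa* totaled at most 17.7 CPM. *Tgfbr1* ranged from 196 to 292 CPM in GFPiSMC and from 198 to 295 CPM in Tgfbr1/2iSMCKO libraries, and *Tgfbr2* from 88.9 to 128 and from 68.2 to 102 CPM. These counts cover the whole gene, including exons outside the deleted part, and neither receptor passed the test (log2 fold changes 0.10 and −0.26, adjusted p = 0.79 and 0.233 by edgeR).

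Genotypes were compared over both segments with edgeR's quasi-likelihood test, which asks whether loss of TGF-β receptors went with a different level of BMP pathway transcripts. Of the 10 genes, *Id2* alone was called at an adjusted p below 0.05, compared with 5.03% of all genes tested. *Id2* was higher in Tgfbr1/2iSMCKO SMCs by 33.5%. None of the 10 changed by more than 2-fold with an adjusted p below 0.05, compared with 2.67% of all genes. At an unadjusted p below 0.05 there were 6 of 10 genes (*Id2*, *Id3*, *Id4*, and *Smad9* higher, *Bambi* and *Bmpr1a* lower), compared with 16.1% of all genes. The median log2 fold change was 0.18 for the 10 genes and 0.04 for all genes. With counts of both segments summed per animal, 3 against 3 animals, the filter was applied by genotype and left 24275 genes. In that fit 0 of the 10 genes were called while 1.86% of those 24275 were called. At an unadjusted p below 0.05 there were 5 of 10 in that fit, compared with 11.6% of the 24275. No gene of the 10 had levels that separated the genotypes over all 12 libraries, as 4.39% of all genes did.

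**Figure D1:**
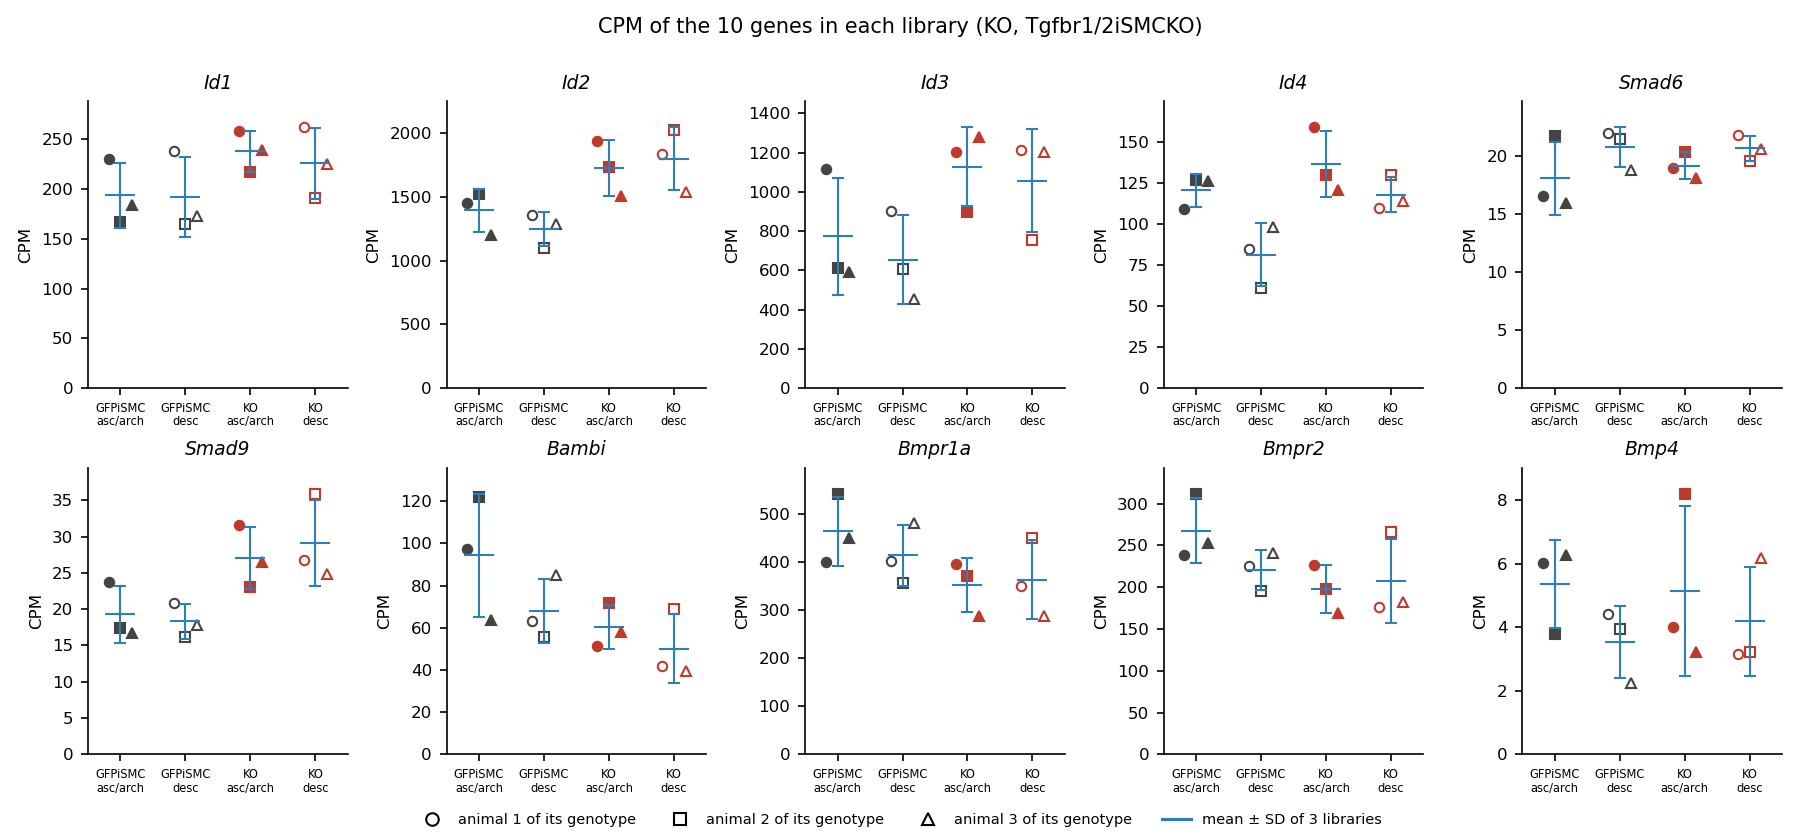
CPM of each of the 10 genes (vertical axes, from 0) in the 4 groups, with symbols for animals, filled for ascending/arch and open for descending, and blue lines for the mean ± SD of 3 libraries. The genotypes overlap in every panel when both segments are read together, and the *Id2* panel shows the Tgfbr1/2iSMCKO libraries from 1504 to 2025 CPM above all but the highest GFPiSMC library at 1526 CPM.

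Among the *Id* genes, *Id2* (ENSMUSG00000020644.9, chr12:25093799-25097140) had the highest level. GFPiSMC libraries had 1453, 1526, and 1204 CPM in the ascending/arch segment and 1357, 1098, and 1291 CPM in the descending segment. Tgfbr1/2iSMCKO libraries had 1942, 1732, and 1504 CPM and 1836, 2025, and 1535 CPM, respectively. The Tgfbr1/2iSMCKO values were all higher in the descending segment, whereas in the ascending/arch segment the lowest Tgfbr1/2iSMCKO library fell below the highest GFPiSMC library. The log2 fold change was 0.42 (SE 0.11, 95% CI 0.19 to 0.65, adjusted p = 0.0373 by edgeR). With counts summed per animal it was 0.43 (adjusted p = 0.14 by edgeR). The call held without Tgfbr1/2iSMCKO animal 3 (adjusted p = 0.0115 by edgeR) and was lost when any of the other 5 animals was left out, with log2 fold changes of 0.37 to 0.45 and adjusted p from 0.0819 to 0.188.

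*Id3* (ENSMUSG00000007872.3, chr4:136143497-136145755) had the largest log2 fold change of the 10 genes, 0.62 (SE 0.21, adjusted p = 0.119 by edgeR), and also the widest spread of the *Id* genes. GFPiSMC libraries had 1116, 610, and 592 CPM in the ascending/arch segment and 902, 609, and 454 CPM in the descending segment. Tgfbr1/2iSMCKO libraries had 1202, 899, and 1281 CPM and 1215, 757, and 1201 CPM. GFPiSMC animal 1, highest of its genotype in both segments, and Tgfbr1/2iSMCKO animal 2, lowest of its genotype in both, made up the overlap, since the genotypes were separate once either was set aside. Without GFPiSMC animal 1 the log2 fold change was 0.94 (adjusted p = 0.0124 by edgeR), and without GFPiSMC animal 3 it was 0.44. *Id3* was called in only 1 of 6 fits with an animal left out (adjusted p otherwise up to 0.423 by edgeR). With counts summed per animal it was not called (adjusted p = 0.403 by edgeR).

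*Id1* (ENSMUSG00000042745.9, chr2:152736251-152737410) followed a similar order of animals at a smaller size. Its levels were 230, 167, and 184 CPM and 238, 165, and 173 CPM in GFPiSMC SMCs (ascending/arch, then descending), and 258, 217, and 239 CPM and 262, 191, and 225 CPM in Tgfbr1/2iSMCKO SMCs. GFPiSMC animal 1 was again highest and Tgfbr1/2iSMCKO animal 2 lowest within its genotype. The log2 fold change was 0.27 (SE 0.13, adjusted p = 0.327 by edgeR).

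*Id4* (ENSMUSG00000021379.2, chr13:48261228-48266026) was measured at 109, 127, and 126 CPM in ascending/arch and at 84.7, 60.9, and 98.5 CPM in descending GFPiSMC SMCs. The corresponding Tgfbr1/2iSMCKO values were 159, 130, and 121 CPM and 110, 130, and 114 CPM. Descending GFPiSMC libraries were thus the low group, below every library of the other 3 groups. Between genotypes the log2 fold change came to 0.36 (SE 0.14, adjusted p = 0.188 by edgeR).

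Of the Smads, *Smad9* (ENSMUSG00000027796.2, chr3:54755582-54801257), a receptor-regulated Smad, had a log2 difference of 0.58 between genotypes that did not pass the test (SE 0.16, 95% CI 0.23 to 0.93, adjusted p = 0.0603 by edgeR). GFPiSMC levels were 23.8, 17.4, and 16.7 CPM and 20.9, 16.2, and 17.8 CPM (ascending/arch, then descending), and Tgfbr1/2iSMCKO levels were 31.6, 23.1, and 26.5 CPM and 26.7, 35.9, and 24.8 CPM. A single pair of libraries, both ascending/arch, overlapped between genotypes (23.1 against 23.8 CPM). DESeq2 gave an adjusted p of 0.0048 and edgeR with library size only gave 0.0277, whereas summed counts per animal gave 0.244. *Smad6* (ENSMUSG00000036867.7, chr9:63953076-64022059), the inhibitory Smad of the BMP branch and itself a BMP target, ranged from 16.0 to 22.0 CPM (median 20.1) in GFPiSMC and from 18.1 to 21.8 CPM (median 20) in Tgfbr1/2iSMCKO libraries. Its log2 fold change came to 0.04 (95% CI −0.26 to 0.33), and the groups overlapped fully.

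The receptor genes had negative log2 fold changes that did not pass the test. *Bambi* (ENSMUSG00000024232.1), a pseudoreceptor without a kinase domain that dampens BMP and TGF-β receptors, was measured at 97.3, 122, and 63.7 CPM and at 63.2, 55.5, and 84.9 CPM in GFPiSMC SMCs (ascending/arch, then descending). In Tgfbr1/2iSMCKO SMCs it was at 51.2, 71.7, and 58.2 CPM and at 41.9, 68.9, and 39.4 CPM, and Tgfbr1/2iSMCKO animal 2 was the highest of its genotype in both segments. The log2 fold change was −0.54 (SE 0.19, adjusted p = 0.158 by edgeR), and −0.76 without that animal (adjusted p = 0.0466 by edgeR). *Bambi* was called in only 1 of 6 fits with an animal left out (adjusted p otherwise up to 0.475 by edgeR). With counts summed per animal it was not called (adjusted p = 0.278 by edgeR). *Bmpr1a* (ENSMUSG00000021796.14, chr14:34410734-34503341), a type I BMP receptor, ranged from 357 to 542 CPM (median 426) in GFPiSMC and from 288 to 450 CPM (median 361) in Tgfbr1/2iSMCKO libraries, and the log2 fold change came to −0.29 (SE 0.14, adjusted p = 0.309 by edgeR). *Bmpr2* (ENSMUSG00000067336.6, chr1:59763400-59879014), the type II BMP receptor, ranged from 195 to 312 CPM (median 240) and from 169 to 266 CPM (median 190), and the log2 fold change came to −0.26 (SE 0.14, adjusted p = 0.406 by edgeR). Both receptors had nonoverlapping, lower Tgfbr1/2iSMCKO levels in the ascending/arch segment only, a pattern found in 19% of all genes there in either direction.

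*Bmp4* (ENSMUSG00000021835.14, chr14:46383520-46390669), the ligand of the set, was near the lower limit of what these libraries quantify well, with 56 to 183 counts. GFPiSMC levels ranged from 2.25 to 6.28 CPM (median 4.17) and Tgfbr1/2iSMCKO levels from 3.15 to 8.20 CPM (median 3.62). The log2 fold change was 0.09 (95% CI −0.56 to 0.74), an interval that leaves room for a change of either sign.

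Genes on the opposite strand or inside the locus overlapped *Id4*, *Bmpr1a*, *Bmpr2*, and *Bmp4*. The 6 overlapping genes had at most 73 counts in any library, and for *Bmp4* at most 10. The library kit is not stated to keep strand information, so reads of overlapping pairs cannot be assigned with certainty.

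**Figure D2:**
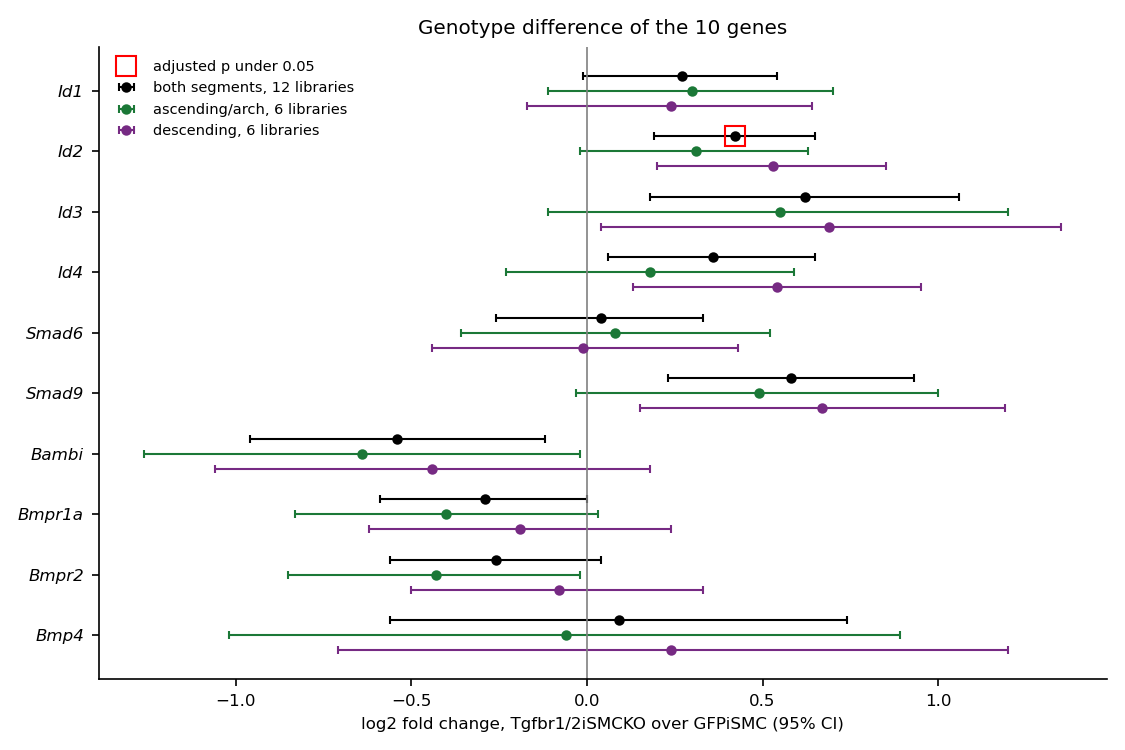
Log2 fold change of Tgfbr1/2iSMCKO over GFPiSMC (horizontal axis) with 95% CI for the 10 genes, for both segments together and for each segment. *Id2* at 0.42 carries the red square of an adjusted p below 0.05, and intervals of all 10 genes overlap between segments.

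**Figure D3:**
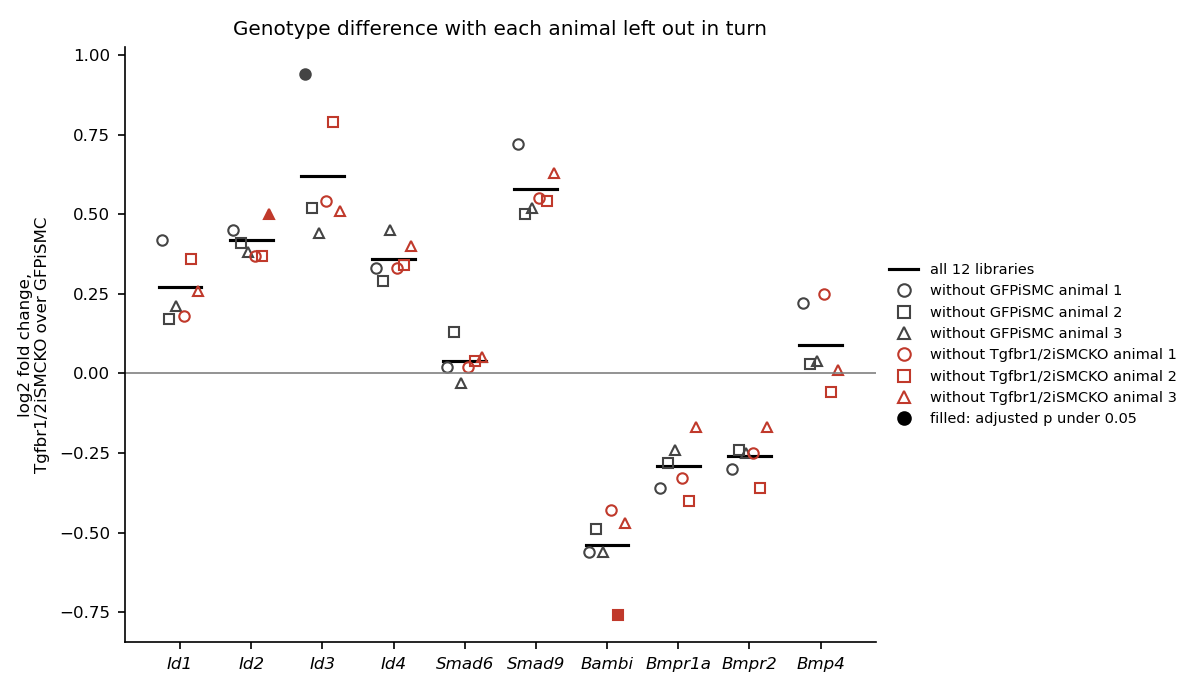
Log2 fold change of the 10 genes over both segments (vertical axis) for all 12 libraries (black bars) and for the 6 fits that each omit an animal, filled where the adjusted p is below 0.05. *Id3* is at 0.94 without GFPiSMC animal 1, *Bambi* at −0.76 without Tgfbr1/2iSMCKO animal 2, and *Smad6* and *Bmp4* lie on both sides of 0.

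Within segments, 0 of the 10 genes were called in the ascending/arch (1.41% of all genes were) and 0 in the descending segment (1.72% of all genes were). Unadjusted p values below 0.05 were found for 2 genes in the ascending/arch segment, *Bambi* (log2 fold change −0.64, adjusted p = 0.411) and *Bmpr2* (−0.43, adjusted p = 0.407), and 11.4% of all genes had one. In the descending segment they were found for 4 genes, *Id2* (0.53, adjusted p = 0.137), *Id3* (0.69, adjusted p = 0.425), *Id4* (0.54, adjusted p = 0.265), and *Smad9* (0.67, adjusted p = 0.271), compared with 10.7% of all genes, all by edgeR. Levels of *Id2*, *Id4*, and *Smad9* did not overlap between genotypes in descending SMCs, where 14.9% of all genes showed no overlap. The difference of the genotype effect between segments was tested directly. It had an unadjusted p below 0.05 in 0 of the 10 genes and in 2.95% of all genes, and edgeR called 0 of 22320 genes (DESeq2 called 8). The intervals of that difference were wide, for example −0.24 to 0.68 for *Id2*, −0.22 to 0.94 for *Id4*, and −1.05 to 1.66 for *Bmp4* on the log2 scale.

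Levels per length were compared between genes as CPM per kilobase of the union of exons. In ascending/arch GFPiSMC SMCs the order was *Id2* (572 ± 69.2, SD, n = 3), *Id3* (431 ± 166), *Id1* (167 ± 27.9), *Bmpr1a* (73.0 ± 11.3), *Id4* (31.4 ± 2.61), *Bambi* (18.6 ± 5.75), *Bmpr2* (14.9 ± 2.16), *Smad6* (5.65 ± 0.968), *Smad9* (3.60 ± 0.731), and *Bmp4* (2.38 ± 0.612). Ranges overlapped between the neighbors *Id2* and *Id3*, and between *Bambi* and *Bmpr2*, and were separate for the other neighbors. In descending Tgfbr1/2iSMCKO SMCs, *Id2* (738 ± 101) and *Id3* (590 ± 146) again led with overlapping ranges, *Bmpr2* (11.6 ± 2.81) and *Bambi* (9.87 ± 3.22) overlapped in the reverse order of means, and *Smad6* (6.45 ± 0.349) overlapped with *Smad9* (5.43 ± 1.11).

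The rest of the pathway was described with lists by role (53 genes, of which 50 passed the filter). Over both segments 0 of the 50 genes were called higher and 6 lower in Tgfbr1/2iSMCKO SMCs, whereas 1.8% of all genes were called higher and 3.23% lower. The 6 genes were *Bmp3* among the ligands and *Fstl1*, *Twsg1*, *Fstl3*, *Fst*, and *Chrdl1* among the 13 tested secreted antagonists and modulators. The median log2 fold change was −0.12 for the 50 genes and −0.73 for the 13 modulators, with 12 of the 13 below 0. Summed per animal, *Bmp3*, *Fstl1*, *Twsg1*, and *Fstl3* were called and *Fst* and *Chrdl1* were not. In that fit 1.86% of 24275 genes were called. The ligand *Bmp2* (log2 fold change −0.71, adjusted p = 0.128 by edgeR) was called lower by DESeq2 (adjusted p = 0.0358). With edgeR it was called in 0 of 6 fits with an animal left out.

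**Figure D4:**
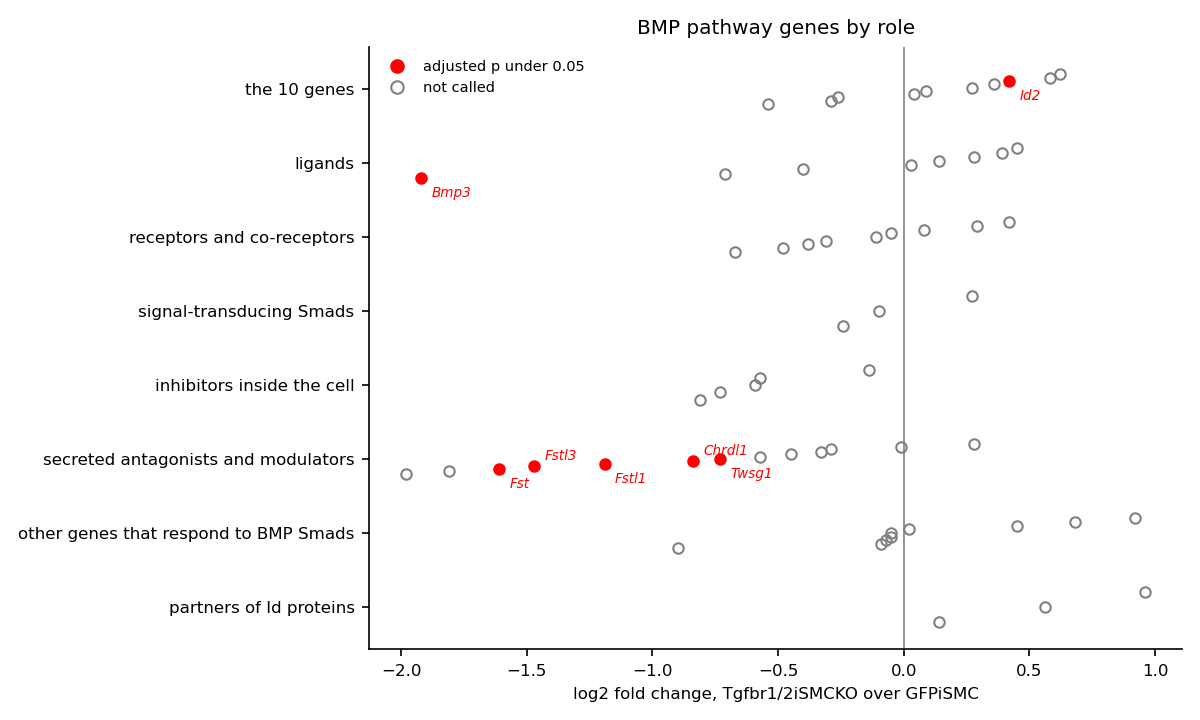
Log2 fold change of Tgfbr1/2iSMCKO over GFPiSMC (horizontal axis) for the 10 genes and 50 further BMP pathway genes by role, red where the adjusted p is below 0.05. The called genes other than *Id2* lie below 0, from −0.73 for *Twsg1* to −1.92 for *Bmp3*.

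*Fstl1*, a secreted glycoprotein of the follistatin family, had the smallest p of the pathway genes. Its levels were 3791, 3554, and 3643 CPM and 3590, 3598, and 3182 CPM in GFPiSMC SMCs (ascending/arch, then descending), and 1506, 1593, and 1712 CPM and 1418, 1429, and 1710 CPM in Tgfbr1/2iSMCKO SMCs. Every Tgfbr1/2iSMCKO library was lower than every GFPiSMC library, and the log2 fold change was −1.19 (SE 0.08, adjusted p = 6.98e-07 by edgeR). *Twsg1*, which binds BMPs together with chordin, ranged from 526 to 636 CPM in GFPiSMC and from 315 to 367 CPM in Tgfbr1/2iSMCKO libraries, also without overlap (log2 fold change −0.73, SE 0.08, adjusted p = 0.000116 by edgeR). *Fstl3*, a binder of activins, ranged from 105 to 232 CPM and from 33.0 to 71.4 CPM without overlap (log2 fold change −1.47, SE 0.23, adjusted p = 0.00185 by edgeR). These 3 calls held when each of the 6 animals was left out.

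*Fst*, encoding the activin and BMP binder follistatin, was low, with 3.87 to 7.04 CPM in GFPiSMC and 0.337 to 3.05 CPM in Tgfbr1/2iSMCKO libraries (log2 fold change −1.61, SE 0.36, adjusted p = 0.0178 by edgeR). Its levels did not overlap, but the call was lost without GFPiSMC animal 1, 2, or 3 or Tgfbr1/2iSMCKO animal 2 (adjusted p from 0.0538 to 0.0916). *Chrdl1*, a chordin-like BMP antagonist, ranged from 14.6 to 36.2 CPM and from 9.44 to 18.7 CPM, with overlap (log2 fold change −0.84, SE 0.22, adjusted p = 0.0453 by edgeR). That call was kept only without GFPiSMC animal 2 (adjusted p = 0.042) and was lost without any of the other 5 animals (adjusted p up to 0.226).

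*Bmp3*, a BMP family member known to oppose other BMPs, was called lower in Tgfbr1/2iSMCKO SMCs in each segment. Ascending/arch levels were 179, 134, and 123 CPM in GFPiSMC and 51.4, 67.4, and 35.5 CPM in Tgfbr1/2iSMCKO SMCs. Descending levels were 52.0, 59.6, and 71.5 CPM and 9.07, 15.4, and 11.7 CPM. Descending GFPiSMC and ascending/arch Tgfbr1/2iSMCKO libraries overlapped, and within each segment the genotypes were separate. Between genotypes the log2 fold change came to −1.92 (SE 0.22, adjusted p = 0.000161 by edgeR), −1.50 in the ascending/arch and −2.34 in the descending segment (adjusted p = 0.0154 and 0.000882 by edgeR). The difference between those effects was −0.84 (95% CI −1.66 to −0.02, adjusted p = 1 by edgeR). The call in the ascending/arch segment was lost without GFPiSMC animal 1 or 2 or Tgfbr1/2iSMCKO animal 1 or 3 (adjusted p from 0.0671 to 0.106).

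**Figure D5:**
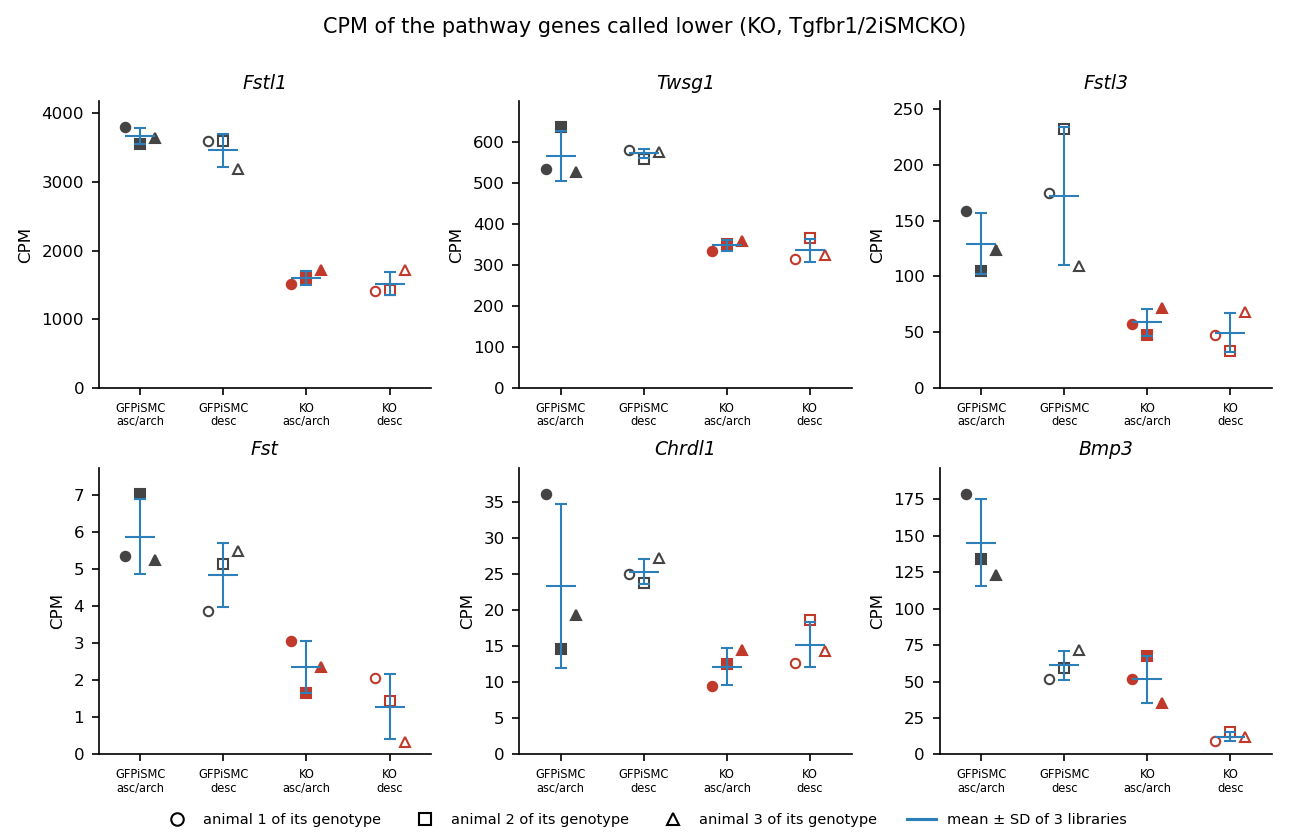
CPM (vertical axes, from 0) of the 6 further pathway genes called lower over both segments, with symbols for animals, filled for ascending/arch and open for descending, and blue lines for the mean ± SD of 3 libraries. *Fstl1*, *Twsg1*, *Fstl3*, and *Fst* are separate between genotypes, while *Chrdl1* and *Bmp3* overlap when the segments are read together.

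In the ascending/arch segment 0 of the 50 were called higher (0.403% of all genes) and 3 lower (*Bmp3*, *Fstl1*, and *Twsg1*; 1.01% of all genes). In the descending segment 0 were called higher (0.52% of all genes) and 4 lower (*Bmp3*, *Fstl1*, *Fstl3*, and *Twsg1*; 1.21% of all genes). The *Fstl1* calls and the descending *Bmp3* call held without each animal. The ascending/arch *Twsg1* call was lost without GFPiSMC animal 1 or 2 or Tgfbr1/2iSMCKO animal 1 (adjusted p from 0.0818 to 0.108), the descending *Twsg1* call without animal 1 of either genotype (0.068 and 0.072), and the descending *Fstl3* call without animal 1 or 2 of either genotype (0.0572 to 0.118). The remaining lists held no call between genotypes over both segments. Of 9 tested receptors and co-receptors, the 5 with the highest CPM were *Bmpr1b* (log2 fold change −0.05), a type I BMP receptor, *Acvr2a* (0.08), a type II receptor, *Acvr1* (−0.48, adjusted p = 0.0839 by edgeR), the type I receptor mutated in fibrodysplasia ossificans progressiva, and the co-receptors *Eng* (−0.31) and *Rgmb* (−0.11). The adjusted p of the other four was at least 0.77. *Acvr1* was called lower by DESeq2 (adjusted p = 0.0156). With edgeR it was called in 1 of 6 fits with an animal left out (adjusted p = 0.0333) and not with counts summed per animal (0.35). The signal-transducing Smads *Smad1* (−0.24), *Smad5* (0.27), and *Smad4* (−0.10) had adjusted p of at least 0.532. Of the inhibitors inside the cell, the Smad corepressors *Ski* and *Skil* had log2 fold changes of −0.81 and −0.57, the ubiquitin ligases *Smurf2* and *Smurf1* of −0.59 (adjusted p = 0.0718) and −0.14, and the inhibitory Smad *Smad7* of −0.73 (adjusted p = 0.105), by edgeR. *Skil* was at 0.79 without GFPiSMC animal 2 and *Smurf1* at 0.11 without GFPiSMC animal 1 and also above 0 without Tgfbr1/2iSMCKO animal 3. Levels of *Ski* and *Smurf2* did not overlap between genotypes over the 12 libraries, as was the case for 4.39% of all genes. *Smurf2* was called without Tgfbr1/2iSMCKO animal 2 (adjusted p = 0.0362 by edgeR), and DESeq2 called *Smurf2* (adjusted p = 0.0251) and *Smad7* (adjusted p = 0.034). Of 9 other genes that respond to BMP Smads, the 5 with the highest CPM were *Atoh8* (log2 fold change 0.68), *Zfp423* (0.45), *Hey1* (0.92), *Dlx5* (−0.90), and *Hes1* (−0.05), all transcription factors, with adjusted p of at least 0.221. The E proteins *Tcf3*, *Tcf4*, and *Tcf12*, partners of Id proteins, had values of 0.14, 0.56, and 0.96 (adjusted p of at least 0.323).

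Descending and ascending/arch SMCs were compared within each genotype. None of the 10 genes was called in GFPiSMC SMCs (0.376% of all genes were) or in Tgfbr1/2iSMCKO SMCs (0.112% were). *Id4* was lower in all 3 descending GFPiSMC libraries than in the ascending/arch libraries, as 13% of all genes were separate in that comparison, with a log2 difference of −0.57 (unadjusted p = 0.0104, adjusted p = 0.546 by edgeR); an unadjusted p below 0.05 was found in 5.98% of all genes. Among the other pathway genes *Msx2* and *Dlx5*, homeobox genes that respond to BMPs in bone and limb, were called lower in the descending segment in both genotypes, as were 0.309% (GFPiSMC) and 0.0941% (Tgfbr1/2iSMCKO) of all genes. *Msx2* was at 7.14 to 21.4 CPM and 0.192 to 0.482 CPM in ascending/arch and descending GFPiSMC libraries and at 4.71 to 15.5 CPM and 0.169 to 0.866 CPM in Tgfbr1/2iSMCKO libraries (log2 differences −5.10 and −4.42, adjusted p = 0.00901 and 0.0347 by edgeR). *Dlx5* was at 14.7 to 39.6 CPM and 1.16 to 3.25 CPM in GFPiSMC and at 7.13 to 17.4 CPM and 0.495 to 1.41 CPM in Tgfbr1/2iSMCKO libraries (log2 differences −3.55 and −3.62, adjusted p = 0.0187 and 0.0395 by edgeR). *Bmp3* was also called lower in descending Tgfbr1/2iSMCKO SMCs (log2 difference −2.09, adjusted p = 0.0104 by edgeR).

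With the animal as a block in the 6 libraries of a genotype, the adjusted p by edgeR was 0.0891 and 0.26 for *Msx2*, 0.104 and 0.0517 for *Dlx5* (GFPiSMC, then Tgfbr1/2iSMCKO), and 0.0945 for *Bmp3* in Tgfbr1/2iSMCKO SMCs. Leaving out GFPiSMC animal 1, 2, or 3 ended the *Msx2* and *Dlx5* calls in GFPiSMC SMCs (adjusted p from 0.0591 to 0.389), as did Tgfbr1/2iSMCKO animal 1 for *Dlx5* (0.0575). In Tgfbr1/2iSMCKO SMCs the *Dlx5* call was lost without any of the 6 animals (0.0596 to 0.421), the *Msx2* call was kept only without Tgfbr1/2iSMCKO animal 2 (0.0457, otherwise up to 0.427), and the *Bmp3* call was lost without Tgfbr1/2iSMCKO animal 1 (0.287). Fibroblast markers were also read by segment. *Dcn*, *Lum*, *Pdgfra*, *Dpt*, *Col14a1*, and *Pi16* totaled 176 to 206 CPM in ascending/arch and 55.7 to 70.0 CPM in descending GFPiSMC libraries, and 112 to 247 and 27.3 to 54.0 CPM in Tgfbr1/2iSMCKO libraries. All 6 had negative log2 differences in both genotypes, and *Lum* was called in both. Their part in the segment differences was not tested.

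Markers of other cells and of cell isolation were also set beside the genotype comparison. The endothelial markers *Pecam1*, *Cdh5*, *Kdr*, *Tie1*, *Emcn*, and *Vwf* totaled 66.9 to 100 CPM in GFPiSMC and 54.4 to 104 CPM in Tgfbr1/2iSMCKO libraries. Of these 6, 5 had log2 fold changes above 0 and 2 an unadjusted p below 0.05, with a median of 0.95. The exception was *Pecam1* (−0.13), which alone was at 44.4 to 95.7 CPM. The endothelial cadherin *Cdh5* was called higher (log2 fold change 2.97, adjusted p = 0.025 by edgeR) at no more than 2.71 CPM. Its adjusted p was 0.0365 with counts summed per animal and 0.0362 to 0.12 with an animal left out, below 0.05 in 2 of 6 such fits. Fibroblast markers totaled 55.7 to 206 and 27.3 to 247 CPM, and 3 of 6 had log2 fold changes above 0 (median 0.06). *Col14a1* was called lower (log2 fold change −0.82, adjusted p = 0.0316 by edgeR). That call was lost with counts summed per animal (adjusted p = 0.185 by edgeR) and held in 1 of 6 fits with an animal left out, that without Tgfbr1/2iSMCKO animal 3 (adjusted p = 0.000796, otherwise up to 0.192). The immediate early genes *Fos*, *Fosb*, *Jun*, *Junb*, *Egr1*, *Atf3*, and *Ier2* totaled 245 to 1032 CPM (median 587) in GFPiSMC and 200 to 740 CPM (median 227) in Tgfbr1/2iSMCKO libraries. Of these 7, 5 had log2 fold changes below 0 (median −0.68), and 2 were lower at an unadjusted p below 0.05. By edgeR 0 of 7 were called (smallest adjusted p = 0.0582), compared with 5.03% of all genes. The part of these markers in the differences of the 10 genes was not tested.

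Patterns across the 12 libraries were described by Pearson's r of log2 CPM with 9209 other genes that had a mean log2 CPM above 3. *Id3* was most like *Ubald2* (r = 0.925), *Id1* (0.913), and *Rab3a* (0.899), and *Id2* was most like *Bcap29* (0.934), *Zc3hav1* (0.923), and *Sema5a* (0.922). *Smad9* was most like *Phactr2* (0.917), *Zfp945* (0.908), and *Sacm1l* (0.898), and *Bambi* was most like *Tbc1d9* (0.941), *Hacd4* (0.919), and *Coq2* (0.913). The 12 libraries share genotype, segment, animal, and depth, so these values are descriptions. Choosing genes by their genotype p also favors alike genes that differ between genotypes. *Bcap29*, *Phactr2*, *Sacm1l*, and *Tbc1d9* were themselves called between genotypes (log2 fold changes 0.79, 1.06, 0.48, and −0.79), and the other genes of these lists were not.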

How the data were processed

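RNA was measured in GFP+ SMCs of 12 libraries (6 animals, 2 segments each) prepared with a low-input kit. Per the study's methods, the authors trimmed reads with Trim Galore, aligned them to GRCm38 with HISAT2 and used StringTie with the GENCODE M15 annotation. The deposited values are whole-number counts per gene, without normalization. The step from StringTie coverage to counts is not given in the sources used here, and values of 2 (32279) outnumber values of 1 (22574), so counts halved and rounded were an alternative. Symbols, coordinates, and exon lengths came from GENCODE M21.

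Libraries were grouped by genotype and segment. Filtering used filterByExpr on the 4 groups and scaling used TMM. Tests were edgeR (4.0.16, R 4.3.3) quasi-likelihood tests with segment and genotype, or with 4 group means, and Benjamini-Hochberg adjustment over 22320 genes, called at an adjusted p below 0.05. SEs were derived from the F statistics. The common biological coefficient of variation came to 0.442. The fits over both segments treat the 6 libraries of a genotype as independent although each mouse gave 2, so their p values measure the spread between libraries. Counts summed per animal, which measure the spread between 3 animals per genotype, accompany the calls, and an exact permutation test of 3 against 3 cannot give a p below 0.1. Alternatives were DESeq2 (1.42.0), RLE factors, library size only, other filters, halved counts, limma-voom (limma 3.58.1) with animals as random effects, a replicate block, genotype without segment, single segments or genotypes, the longest transcript for length, and each animal left out. The steps were tested on simulated counts. Those libraries were drawn independently, so the sharing of a mouse by 2 libraries was not part of that test.

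After removal of group means, libraries of the same number and genotype correlated across 9210 genes at 0.187, −0.242, and 0.024 (GFPiSMC) and 0.0612, 0.377, and 0.661 (Tgfbr1/2iSMCKO). No batch is named in the labels. The 10 genes and the lists were chosen with earlier results of these data known. The text names all 10, every list gene called over both segments or between segments, and otherwise at most 5 genes per list, those with the highest mean CPM.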

Additional observations from a re-analysis of the deposited data

How the results depend on the processing

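The log2 fold changes between genotypes over both segments kept their sign under all 16 alternatives for 8 of the 10 genes. With an animal left out, *Smad6* ranged from −0.03 (without GFPiSMC replicate 3) to 0.13 and *Bmp4* from −0.06 (without Tgfbr1/2iSMCKO replicate 2) to 0.25. The number of the 10 genes called (1) was 2 with DESeq2 and 2 with genotype alone (*Id2* and *Smad9* in each), 3 with library size only (*Id3* in addition, adjusted p = 0.0498 by edgeR), 0 with counts divided by 2 (*Id2*, 0.0564) and 0 with counts summed per animal, and 0 to 1 when animals were left out. *Id2* was not called with a mean of at least 50 counts (0.0739 by edgeR), where *Smad9* was (0.0471). Library size only moved the median log2 fold change of all genes from 0.04 to 0.16 and with it the values of the 10 genes. Of all genes, 5.03% were called in the main fit and 1.86% with summed counts. DESeq2 also called more of all genes, and library size only more genes higher, as given below. No share over all genes is given here for genotype alone. The counts of the 10 genes called are therefore not read as a result about these genes. In the other comparisons none of the 10 was called under any alternative.

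Replicate numbers did not pair the genotypes: correlations of same-numbered libraries were −0.201, 0.216, and 0.0213 (ascending/arch) and 0.00943, −0.46, and −0.527 (descending). With a replicate block 2 of the 10 genes were called (*Id2*, and *Id3* at an adjusted p of 0.0373 by edgeR), and *Chrdl1* was not. The share of all genes called with that block over both segments is not given here. Within segments the block left 104 of 315 called genes (ascending/arch) and 14 of 385 (descending), and ended all calls of the pathway genes except *Fstl1* in the ascending/arch segment.

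All genes called over both segments numbered 1123, compared with 2034 by DESeq2, 451 with summed counts, and 622 to 1066 with an animal left out. Within segments, DESeq2 called 909 (ascending/arch) and 907 (descending), the descending libraries alone gave 150, and leaving out an animal gave 128 to 240 and 136 to 330. The difference of the genotype effect had 0 calls, compared with 8 by DESeq2, 1 without a filter, and 0 to 3 with an animal left out. Segment differences numbered 84 in GFPiSMC (DESeq2 286, animal block 26, 6 to 86 with an animal left out) and 25 in Tgfbr1/2iSMCKO SMCs (DESeq2 165, that genotype alone 4, block 3, no filter 47, 5 to 19). Split by direction, library size only gave 699 genes higher over both segments, against 402. *Bmp3* was not called with genotype alone (−1.70, 0.0645 by edgeR). With the longest transcript as length, *Id2* and *Id3* in ascending/arch GFPiSMC SMCs were at 708 and 605 and *Bmpr2* at 20.8 CPM per kilobase. *Bmp4*, at 56 to 183 counts, is the member whose precision depth limits most.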

Other observations

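Values that stood apart in a single library were seen among the inhibitors inside the cell, and both genes were singled out after their values were seen. *Ski*, a Smad corepressor, was at 1.12 CPM (23 counts) in the ascending/arch library of Tgfbr1/2iSMCKO animal 2 and at 133 to 227 CPM in the other 11 libraries. *Skil*, a related corepressor, was at 381 CPM in the ascending/arch library of GFPiSMC animal 2 and at 7.72 to 114 CPM in the other 11. Neither gene was called between genotypes (adjusted p = 0.628 and 0.862 by edgeR). *Ski* was lower in all 6 Tgfbr1/2iSMCKO than in all 6 GFPiSMC libraries, as 4.39% of all genes were separate in either direction, and without Tgfbr1/2iSMCKO animal 2 it was called (log2 fold change −0.53, adjusted p = 0.0179 by edgeR).

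*Sost*, which encodes the bone-associated antagonist sclerostin, was measured at 161 to 495 CPM. GFPiSMC libraries had 354, 292, and 337 CPM (ascending/arch) and 358, 495, and 264 CPM (descending), and Tgfbr1/2iSMCKO libraries had 192, 184, and 431 CPM and 182, 161, and 387 CPM. Tgfbr1/2iSMCKO animal 3 was above the other animals of its genotype in both segments, and the log2 fold change of −0.45 did not pass the test (adjusted p = 0.469 by edgeR). Without that animal *Sost* was called lower over both segments (−0.97, adjusted p = 0.00555 by edgeR) and in the descending segment (−1.14, adjusted p = 0.0428 by edgeR). This fit is given because that animal's values stood apart, so its calls are not independent of those values.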
